A study of Mus musculus with 4 samples.

Results

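GABA-A receptors are the chloride channels through which the transmitter GABA inhibits neurons. Most are built from alpha, beta and either gamma or delta subunits, and the subunit make-up sets where the channel sits and how long it opens. In the cerebellum the alpha6 and delta subunits are found in granule cells, where they form receptors outside synapses that carry a steady, tonic inhibition. The genes described here are 7 that encode such subunits (Gabra2, Gabra3, Gabra6, Gabrb1, Gabrb2, Gabrg1 and Gabrd), taken by symbol from a table of 24015 genes. All 7 were in the table and all 7 had enough reads to be tested.

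The study compared cerebella dissected from mice heterozygous for an Arid1b knockout (HT) with those of wild-type littermates (WT), all C57BL/6N adults of 140 to 150 postnatal days with no treatment given in the labels. The ARID1B protein is part of the BAF complexes, which move nucleosomes. Each genotype had 1 male and 1 female library, 4 in all, made from messenger RNA with a kit that keeps the strand and read in 1 lane as single reads of 100 bases. The sources used here do not give the deleted stretch of Arid1b. The labels name no animals. Each library had its own combination of genotype and sex, so the 4 came from different mice. The p-values rest on how far these 4 libraries spread, with 1 residual degree of freedom, and on spread borrowed across genes.

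The libraries held 15950899 to 20616219 counts. Arid1b had 52.9 CPM (counts per 1000000 counts of a library) in the HT male and 55.8 in the HT female, against 69.9 in the WT male and 71.0 in the WT female, lower in both HT libraries (adjusted p = 0.243 in edgeR). Xist and Ddx3y matched the labelled sex in all 4 libraries. Of the cerebellar markers, 20 of 20 for granule cells and 16 of 16 for Purkinje cells were tested, with none at 0. All 22 markers of brainstem, midbrain and cerebellar nuclei neurons and all 10 of choroid plexus were tested too. Detection of markers therefore does not show how far the dissection was limited to cerebellum. The WT female library stood apart for genes of brainstem and midbrain monoamine neurons, which were low there, and for Hoxa5 and Hoxb5, hindbrain and spinal cord patterning genes, which were high there. Hoxa5 had 2.32 and 5.64 CPM in the HT male and HT female, against 4.13 and 15.9 CPM in the WT male and WT female, and Hoxb5 had 4.44 and 9.34 CPM in the HT male and HT female, against 3.95 and 23.6 CPM in the WT male and WT female. Tph2, the serotonin synthesis enzyme of raphe neurons, named after its values were seen, had 52.1 and 49.5 CPM in the HT male and HT female, against 52.2 in the WT male and 5.63 in the WT female.

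Of the 7 subunit genes, 0 passed an adjusted p of 0.05 (edgeR quasi-likelihood test over 15117 genes, Benjamini-Hochberg), where 0.0198% of all tested genes did. At an unadjusted p under 0.05 there were 3, Gabra3 on the higher side and Gabra6 and Gabrd on the lower side, beside 11.7% of all tested genes, 5.22% higher and 6.46% lower. Both HT libraries were above both WT libraries for 1 gene, Gabra3, as for 22.1% of all tested genes, and below them for 2, Gabra6 and Gabrd, as for 22.6%. By sign alone 3 of the 7 were higher and 4 lower, with 51.1% of all tested genes higher and 48.9% lower. DESeq2 called 2 of the 7 (Gabra6 and Gabrd) and 0.525% of the 6093 genes it gave an adjusted p, and limma-voom called 0 of the 7 and 0.0198% of all genes. Gabra3, Gabra6 and Gabrd were called by edgeR's likelihood ratio test, which called 1.10% of all genes, and by the quasi-likelihood test with no filter on low counts, which called 2.92%. The other 4 genes, Gabra2, Gabrb1, Gabrb2 and Gabrg1, overlapped between the genotypes. The plot of each gene by library shows these levels.

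**Figure D1:**
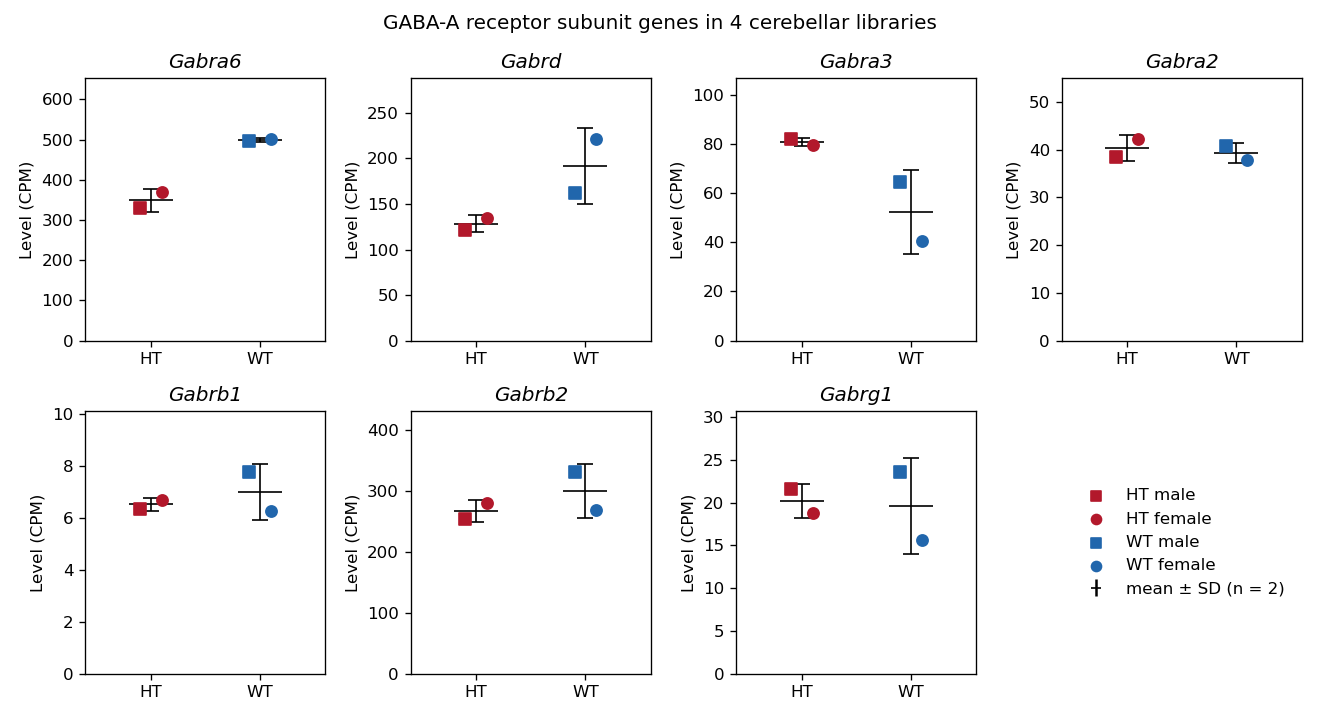
Level in CPM (vertical axes from 0, a different range in each panel) of each of the 7 genes in HT and WT libraries, squares for males and circles for females, with the mean and SD of 2 libraries as black bars. Gabra6 and Gabrd lie lower in both HT libraries than in both WT libraries, Gabra3 lies higher in both, and the other 4 genes overlap.

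Gabra6 encodes the alpha6 subunit, which among brain regions is found chiefly in cerebellar granule cells and makes receptors that are insensitive to the sedative diazepam. It had 329 CPM in the HT male and 369 CPM in the HT female, against 496 CPM in the WT male and 502 CPM in the WT female. Both HT libraries were below both WT libraries, and the WT pair was close together. The means were 349 ± 28.2 CPM in HT and 499 ± 4.51 CPM in WT (SD, n = 2 each), a 0.70-fold level. The log2 fold change was -0.51 ± 0.10 (SE), with an adjusted p of 0.136 in edgeR, and ranked Gabra6 39th by p among all tested genes. DESeq2 gave an adjusted p of 0.0242. The log2 fold change lay between -0.61 and -0.43 with any 1 library left out, and it passed the edgeR test without the WT male (adjusted p = 3.84e-08) or without the WT female (adjusted p = 1.04e-06). It did not pass without the HT male (adjusted p = 1) or without the HT female (adjusted p = 0.813). The fit without the WT male called 17.5% of all genes and that without the WT female 4.30%, against 0% without the HT male and 0.0193% without the HT female. In bulk RNA, a smaller share of granule cells in the dissected tissue and less Gabra6 RNA per granule cell cannot be told apart.

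The 250 bases before the Gabra6 start are shown because nuclear factor I proteins, which bind the half-site TTGGC, are known to drive this gene in granule cells. The promoter of Gabra3 is set beside it as the gene whose HT libraries lay on the other side. Both are from RefSeq (build GRCm38.p6, minus strand, 5′ to 3′), whose promoter table matched 6 of the 7 genes. Gabrd was the gene without an entry. Capitals mark a match on either strand to the half-site TTGGC, to the NeuroD-type E-box CAGATG or to the TATA box letters TATAAA.
Gabra6, chr11:42321073-42321322: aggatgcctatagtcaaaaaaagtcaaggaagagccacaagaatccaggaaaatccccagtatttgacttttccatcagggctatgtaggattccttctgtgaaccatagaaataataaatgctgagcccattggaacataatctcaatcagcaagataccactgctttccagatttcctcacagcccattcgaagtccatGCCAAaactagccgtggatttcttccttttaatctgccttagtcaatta
Gabra3, chrX:72656920-72657169, the first of 2 listed starts: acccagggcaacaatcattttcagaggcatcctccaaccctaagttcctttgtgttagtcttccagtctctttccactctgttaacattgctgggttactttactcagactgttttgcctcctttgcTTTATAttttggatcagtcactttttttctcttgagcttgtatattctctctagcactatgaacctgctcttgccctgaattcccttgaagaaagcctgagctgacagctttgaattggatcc

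The Gabra6 window held 1 match, the half-site read as GCCAA between 49 and 45 bases before the start. Of all 32851 promoter windows of this length, 41.5% held TTGGC on either strand, 14.4% held CAGATG and 12.4% held TATAAA. Among the other subunit genes, TTGGC was found before a listed start of Gabra2, Gabrb1, Gabrb2 and Gabrg1. TATAAA was found between 30 and 25 bases before the first listed start of Gabrb2. The windows of the 2 Gabra3 starts overlap and hold the same site, read as TTTATA. It lies between 123 and 118 bases before the first start and between 235 and 230 before the second. Nfia, which encodes a nuclear factor I protein and is in the granule cell list, had 55.2 and 56.9 CPM in the HT male and HT female, against 72.8 and 87.7 CPM in the WT male and WT female. Nfib, a second such factor in that list, had 67.0 and 77.5 CPM in the HT male and HT female, against 89.4 and 110.0 CPM in the WT male and WT female. Both factors were named after their values were seen. Their HT libraries lay below their WT libraries, with an adjusted p of 0.156 in edgeR for each.

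Gabrd encodes the delta subunit, the partner of alpha6 in the tonic receptors of granule cells. It had 122 CPM in the HT male and 135 CPM in the HT female, against 162 CPM in the WT male and 222 CPM in the WT female. The HT libraries were again both below the WT libraries, but the WT libraries differed from each other by more than the HT libraries did. The means were 129 ± 9.33 CPM in HT and 192 ± 41.9 CPM in WT (SD, n = 2 each), a 0.678-fold level and a log2 fold change of -0.56 ± 0.11 (SE). That did not pass the test (adjusted p = 0.136 in edgeR), at rank 34 by p. DESeq2 gave an adjusted p of 0.0333. The log2 fold change was -0.34 without the WT female, and -0.78 without the WT male, which left the WT female as the only WT library. Without the HT male it was -0.50, and without the HT female -0.66. For every 100 Gabra6 reads there were 37.0 Gabrd reads in the HT male and 36.6 in the HT female, against 32.7 in the WT male and 44.1 in the WT female, so the ratio of this pair overlapped between genotypes.

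Gabra3 encodes the alpha3 subunit, an X-linked gene known for its use in brainstem monoamine neurons and in some cerebellar Golgi cells. It had 82.0 CPM in the HT male and 79.6 CPM in the HT female, against 64.4 CPM in the WT male and 40.3 CPM in the WT female. Both HT libraries were above both WT libraries, and the lowest value was that of the WT female. The means were 80.8 ± 1.74 CPM in HT and 52.4 ± 17.1 CPM in WT (SD, n = 2 each), a 1.58-fold level. The log2 fold change of 0.66 ± 0.15 (SE) did not pass (adjusted p = 0.189 in edgeR). It was 0.33 without the WT female, and 1.00 without the WT male, which left the WT female as the only WT library. Without the HT male it was 0.61, and without the HT female 0.64. The part in this fold change of the low monoamine neuron genes of the WT female was not tested.

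Gabra2 encodes the alpha2 subunit, which in the cerebellum has been described with gamma1 in Bergmann glia. It had 38.5 CPM in the HT male and 42.3 CPM in the HT female, against 40.8 CPM in the WT male and 37.8 CPM in the WT female. The groups overlapped, with a log2 fold change of 0.04 ± 0.13 (SE) and an adjusted p of 0.943 in edgeR. It turned to -0.038 without the HT female and -0.017 without the WT female.

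Gabrb2 encodes the beta2 subunit, the beta partner of most cerebellar receptors and the neighbour of Gabra6 on chromosome 11. It had 255 CPM in the HT male and 280.0 CPM in the HT female, against 332 CPM in the WT male and 268 CPM in the WT female. The WT male was the highest library and the HT male the lowest. The log2 fold change was -0.16 ± 0.12 (SE), with an adjusted p of 0.675 in edgeR. Without the WT female it was -0.31, and without the WT male it was -0.00341.

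Gabrb1, which encodes the beta1 subunit, was the gene of fewest reads among the 7. It had 6.36 CPM in the HT male and 6.71 CPM in the HT female, against 7.78 CPM in the WT male and 6.26 CPM in the WT female, from 107 to 129 counts a library. The groups overlapped, with a log2 fold change of -0.09 ± 0.24 (SE) and an adjusted p of 0.923 in edgeR, and it turned to 0.063 without the WT male. In the annotation, 0.332% of the exon bases of Gabrb1 overlapped Gabra4 on the opposite strand, and the other 6 genes overlapped no annotated exon of another gene.

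Gabrg1 encodes the gamma1 subunit, the gamma of Bergmann glia. It had 21.5 CPM in the HT male and 18.7 CPM in the HT female, against 23.6 CPM in the WT male and 15.6 CPM in the WT female. The WT libraries bracketed the HT libraries. The log2 fold change was 0.06 ± 0.16 (SE), with an adjusted p of 0.924 in edgeR, and it ran from -0.23 without the WT female to 0.37 without the WT male. The 15 tested astrocyte and Bergmann glia markers had a median log2 fold change of -0.12, with 5 higher and 10 lower, and of -0.027 without the WT female.

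**Figure D2:**
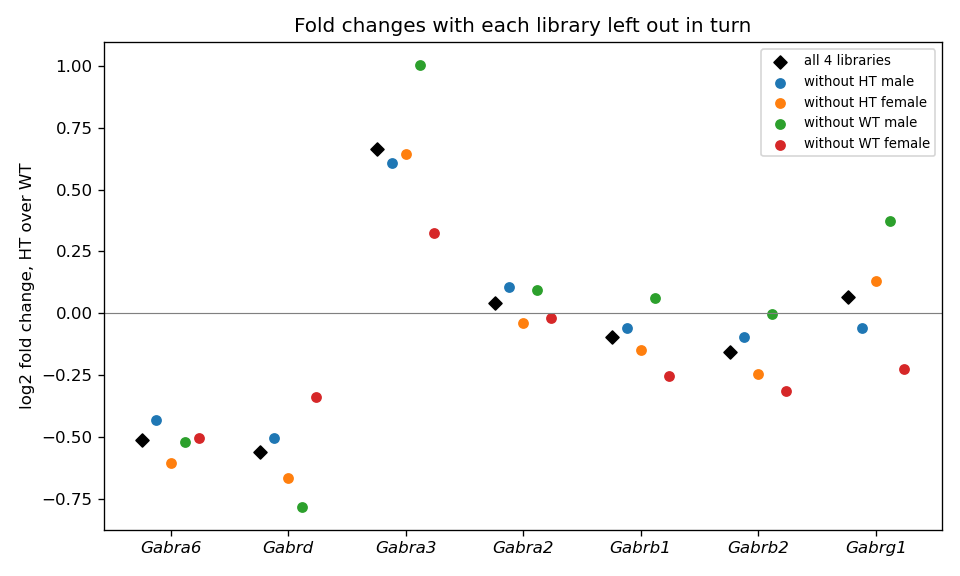
Log2 fold change of HT over WT (vertical axis) for each of the 7 genes with all 4 libraries (black diamonds) and with each library left out in turn (coloured circles). Gabra6, Gabrd and Gabra3 stay on 1 side of 0 in these fits, Gabra6 between -0.61 and -0.43. Gabrb2 also stays below 0, at -0.00341 without the WT male, while Gabra2, Gabrb1 and Gabrg1 cross 0.

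The sexes were compared because each genotype had 1 library of each. Between the HT and WT libraries of 1 sex, the log2 ratio of Gabra6 was -0.59 in males and -0.44 in females. For Gabrd it was -0.41 in males and -0.71 in females, and for Gabra3 it was 0.35 in males and 0.98 in females. For these 3 genes the sign did not differ between the sexes. The other 4 genes had a ratio below 0 in males and above 0 in females. Among them Gabrb2 was at -0.38 in males and 0.07 in females, Gabrb1 at -0.29 in males and 0.10 in females, Gabra2 at -0.08 in males and 0.16 in females, and Gabrg1 at -0.13 in males and 0.27 in females. Whether the HT effect depended on sex was tested as an interaction beside genotype, with sex itself left in the residual, and it passed for 0 of the 7 (adjusted p = 0.998 for each in edgeR) and for 0.0198% of all tested genes. At an unadjusted p under 0.05 it also held 0 of the 7, beside 3.55% of all tested genes. The smallest unadjusted p was that of Gabrb2, 0.0595, for a difference of -0.45 ± 0.21 (SE), male minus female.

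Male and female libraries themselves differed past an adjusted p of 0.05 for 0 of the 7 genes, where 0.0595% of all tested genes did. Gabrg1 was at 0.40 ± 0.16 (SE) on the log2 scale, male minus female, Gabra3 at 0.35 ± 0.15 (SE) and Gabrd at -0.30 ± 0.11 (SE). All 3 had an unadjusted p under 0.05, as did 3.82% of all tested genes, and an adjusted p of 0.994 in edgeR. The WT male was above the WT female in Gabrg1 and Gabra3 and below it in Gabrd.

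Levels of different genes were compared per kilobase of the longest annotated transcript. On that scale Gabra6 was highest, at 142 ± 11.4 CPM per kilobase in HT and 202 ± 1.83 in WT (SD, n = 2 each). Gabrb2 followed at 67.0 ± 4.48 CPM per kilobase in HT and 75.2 ± 11.2 in WT (SD, n = 2 each). Gabrd had 47.5 ± 3.45 CPM per kilobase in HT and 70.9 ± 15.5 in WT (SD, n = 2 each). Gabrb2 and Gabrd overlapped in WT libraries and not in HT libraries. Gabra3 came next at 22.1 ± 0.476 CPM per kilobase in HT and 14.3 ± 4.66 in WT (SD, n = 2 each). Gabra2 (6.90 CPM per kilobase in HT, 6.72 in WT), Gabrg1 (4.22 in HT, 4.11 in WT) and Gabrb1 (0.476 in HT, 0.511 in WT) closed the order, each apart from the next in all 4 libraries. The order of the 7 was the same per kilobase of coding sequence.

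Expressed as shares of the summed level per kilobase of the 7 genes, Gabra6 made up 48.3% in the HT male and 49.4% in the HT female, against 53.7% in the WT male and 54.4% in the WT female. Gabra3 made up 8.11% in the HT male and 7.17% in the HT female, against 4.70% in the WT male and 2.95% in the WT female. Gabrd made up 16.3% in the HT male and 16.5% in the HT female, against 16.02% in the WT male and 21.9% in the WT female. Gabra6 shares were thus lower in both HT libraries, while those of Gabrd and Gabrg1 overlapped. Gabra3 shares were higher in both HT libraries, and so were those of Gabra2, Gabrb1 and Gabrb2. The shares of a library add up to a whole, so a lower Gabra6 share goes with higher shares elsewhere. The shares were not tested, since with 2 libraries against 2 an exact permutation test cannot give a two-sided p below 0.333.

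**Figure D3:**
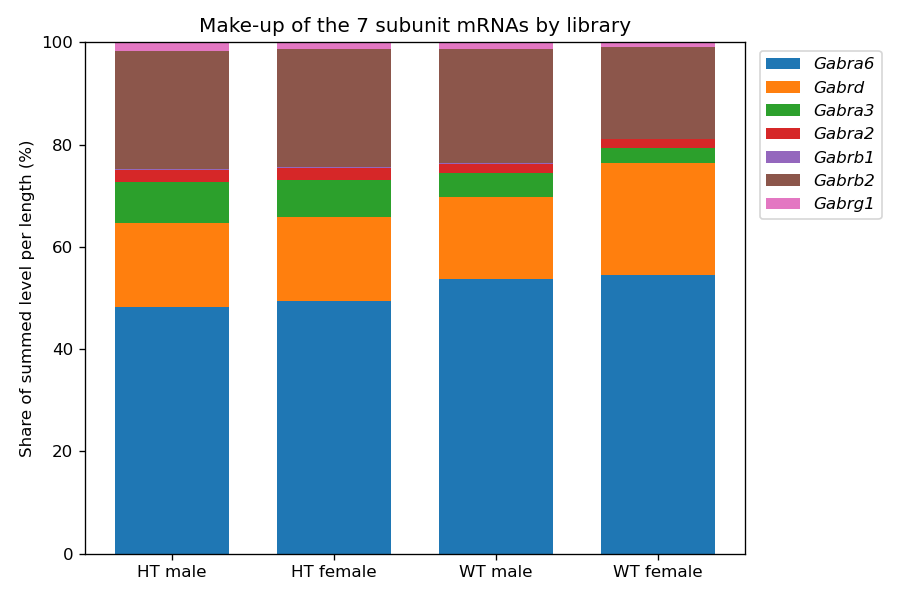
Share in percent (vertical axis) of each of the 7 genes in their summed level per kilobase, 1 bar per library. Gabra6 takes 48.3% and 49.4% of the bar in the HT libraries and 53.7% and 54.4% in the WT libraries. Gabra3 takes 8.11% and 7.17% in HT and 4.70% and 2.95% in WT. Gabra2, Gabrb1 and Gabrb2 also take a higher share in both HT libraries.

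Among the 6 pairs compared, the ratio of the alpha3 to the alpha6 gene gave the widest gap. It sets a gene higher in both HT libraries over a gene lower in both, so it restates their fold changes. Gabra3 against Gabrd was not among the 6. For every 100 Gabra6 reads, Gabra3 had 24.9 reads in the HT male and 21.5 in the HT female, against 13.001 in the WT male and 8.03 in the WT female. Gabra2 had 11.7 and 11.4 reads per 100 Gabra6 reads in the HT male and HT female, against 8.23 and 7.54 in the WT male and WT female. Gabrb2 had 77.3 and 75.8 reads per 100 Gabra6 reads in the HT male and HT female, against 66.9 and 53.4 in the WT male and WT female. All of these ratios share Gabra6 as the divisor.

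Another 9 subunit genes, not the whole of the rest of the family, were set beside these, and 6 of them were tested. Of these 5 were higher and 1 lower, 0 passed, and the median log2 fold change was 0.67, beside 0.0063 over all tested genes. Without the WT female that median was 0.044. Without the WT male Gabrr1 was tested as well, and the median was Gabrr1's own value, 1.46. Gabra4, an alpha partner of delta in the forebrain, had 18.9 and 19.6 CPM in the HT male and HT female, against 24.1 and 21.4 CPM in the WT male and WT female. Its HT libraries were below its WT libraries, at -0.24 ± 0.15 (SE) on the log2 scale and an adjusted p of 0.591 in edgeR. Gabra6 and Gabrb2, neighbours on chromosome 11, were at -0.51 and -0.16.

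Gabra5, the alpha subunit known from hippocampal tonic receptors, had 26.4 and 27.4 CPM in the HT male and HT female, against 23.0 and 13.7 CPM in the WT male and WT female. Gabrq, the theta subunit of brainstem monoamine neurons and the neighbour of Gabra3 on the X chromosome, had 14.7 and 14.5 CPM in the HT male and HT female, against 13.98 and 5.19 CPM in the WT male and WT female. In both genes, as in Gabra3, the WT female was the lowest library. Their log2 fold changes were 0.59 ± 0.20 (SE) for Gabra5 and 0.74 ± 0.34 (SE) for Gabrq, with adjusted p of 0.296 and 0.484 in edgeR. Without the WT female they were 0.23 and 0.06. Without the WT male, which left the WT female as the only WT library, they were 0.97 and 1.49. Gabrg3, Gabre and Gabrr2 had 0.194 to 2.63 CPM in any library, with log2 fold changes of 1.26 ± 0.60 (SE), 0.77 ± 0.50 (SE) and 0.34 ± 0.41 (SE), which without the WT female were 0.37, 0.03 and -0.13. Gabrr1, Gabrp and Gabrr3 were too low to be tested in the fit reported. Gabrr3 had no read in any library, which allows up to 0.146 to 0.188 CPM at 3 counts.

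**Figure D4:**
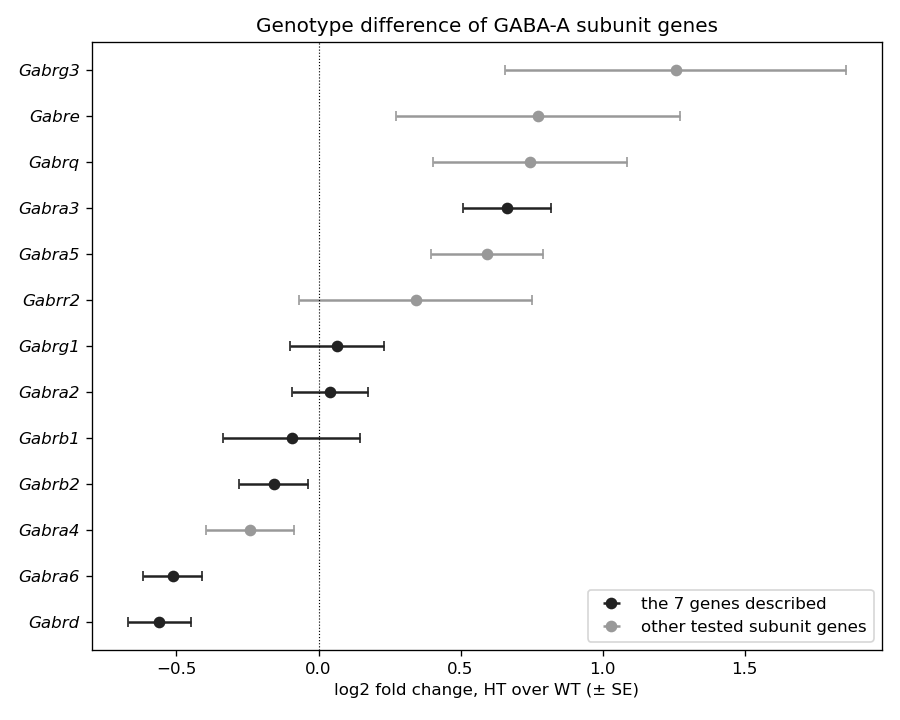
Log2 fold change of HT over WT with its SE (horizontal axis) for 13 tested subunit genes, black for the 7 described and grey for 6 others. Gabrd (-0.56) and Gabra6 (-0.51) lie at the low end, Gabra3 (0.66) lies among Gabra5, Gabrq and Gabre at the high end, and 0 of the 13 passed an adjusted p of 0.05.

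Marker genes of cell types are given here beside the subunits. The 20 granule cell markers summed to 9324 CPM in the HT male and 9733 CPM in the HT female, against 11485 CPM in the WT male and 12433 CPM in the WT female, and 0 of the 20 passed the test. This list, like the others, was written with earlier results of these data known. For all 20 markers both HT libraries were below both WT libraries, beside 22.6% of all tested genes. Their median log2 fold change was -0.41, and -0.24 without the WT female. Among them were Fat2 (-0.58 ± 0.10, SE), a cadherin of parallel fibres, Camk4 (-0.59 ± 0.10, SE), Nrep (-0.58 ± 0.10, SE) and Chn2 (-0.47 ± 0.10, SE). Per 1000 CPM of these markers, Gabra6 had 35.3 and 37.9 CPM in the HT male and HT female, against 43.1 and 40.4 CPM in the WT male and WT female. Gabrd had 13.1 and 13.9 CPM per 1000 in the HT male and HT female, against 14.1 and 17.8 in the WT male and WT female. Both ratios were lower in the HT libraries, by -0.19 for Gabra6 and -0.24 for Gabrd as mean log2 differences, beside -0.51 and -0.56 without the division. The sum is weighted to its most abundant genes. Snap25 held 3284 of the 9324 CPM in the HT male, with a log2 fold change of -0.18 ± 0.10 (SE). How particular Snap25 and the other listed genes are to granule cells was not tested. The log2 difference of the sum was -0.33, beside the median of -0.41 over the 20 markers. The part of granule cell content in the lower Gabra6 and Gabrd values was not tested.

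The 22 markers of brainstem, midbrain and cerebellar nuclei neurons summed to 2686 CPM in the HT male and 2499.5 CPM in the HT female, against 2046 CPM in the WT male and 1833 CPM in the WT female, with 1 at 0 in 1 library (Slc6a3, the dopamine transporter, in the WT female). Of them 20 were higher and 2 lower (Hoxa5 and Hoxb5), and 1 passed the test. Their median was 0.60 on the log2 scale, and 0.38 without the WT female. That was Th, the rate-limiting enzyme of catecholamine synthesis, which rose to 54.6 ± 4.42 CPM in HT, against 25.1 ± 7.91 CPM in WT (SD, n = 2 each). Its log2 fold change was 1.15 ± 0.15 (SE), with an adjusted p of 0.0473 in edgeR. With a library left out it ran from 0.83 without the WT female to 1.49 without the WT male. Per 1000 CPM of these markers, Gabra3 had 30.5 and 31.8 CPM in the HT male and HT female, against 31.5 and 21.99 CPM in the WT male and WT female, so that the groups overlapped. That sum is weighted to its most abundant genes, Nefl, Nefm and Nefh. They had 734, 584 and 489 CPM in the HT male, and 459, 427 and 430 CPM in the WT female. The monoamine neuron genes were a small part of it, such as Tph2 at 52.1 CPM in the HT male. Of the 14 molecular layer and Golgi interneuron markers 6 were higher and 8 lower, with a median of -0.027 that ran to -0.044 without the HT female, and 1 rose. This was Slc6a5, the glycine transporter of Golgi and brainstem neurons, at 1.42 ± 0.18 (SE), with an adjusted p of 0.0473 in edgeR. With a library left out Slc6a5 ran from 0.96 without the WT female to 1.98 without the WT male. The 16 Purkinje cell markers had a median of -0.31, and of -0.19 without the WT female, with 1 higher, 15 lower and 0 called. All 13 oligodendrocyte markers lay above 0 (median 0.16), as did 9 of 10 for choroid plexus, whose median of 0.55 became 0.12 once the HT male was left out. All 12 endothelial and mural markers were lower, with a median of -0.51 that was -0.21 without the WT female, and in these lists 0 genes were called. The part of these cell types in the Gabra3 values was not tested.

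**Figure D5:**
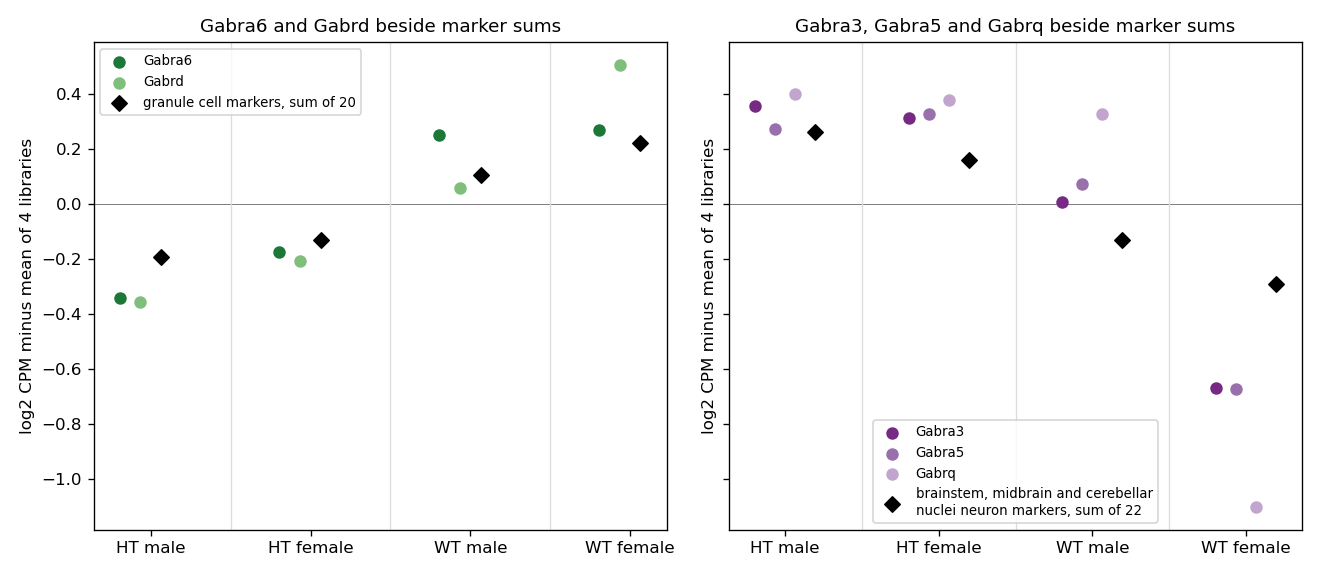
Log2 CPM minus the mean of the 4 libraries (vertical axis) for each library, with Gabra6 and Gabrd beside the summed granule cell markers on the left and Gabra3, Gabra5 and Gabrq beside the summed brainstem, midbrain and cerebellar nuclei neuron markers on the right (black diamonds). On the left the HT libraries lie below 0 and the WT libraries above it, and on the right the WT female is the lowest library for all 4 quantities. The most abundant gene of the left sum is Snap25, and those of the right sum are Nefl, Nefm and Nefh.

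Of 28 listed genes for assembly, trafficking and anchoring, 26 were in the table and tested, 20 higher and 6 lower, and 0 passed. Their median was 0.09 on the log2 scale, and -0.027 without the WT female. The members of smallest p were Hap1 (0.47 ± 0.14, SE), an adaptor that carries receptors along microtubules, Nsf (0.31 ± 0.11, SE), a fusion ATPase, Maged1 (0.25 ± 0.10, SE) and Kif5a (0.25 ± 0.11, SE), a kinesin motor. Without the WT female Hap1 was at 0.20, Nsf at 0.15, Maged1 at 0.24 and Kif5a at 0.11. Without the WT male Hap1 was at 0.73, Nsf at 0.47, Maged1 at 0.25 and Kif5a at 0.37. Gphn, the gephyrin scaffold of inhibitory synapses, named for its role, had 108 and 116 CPM in the HT male and HT female, against 109.7 and 105 CPM in the WT male and WT female. Of 8 genes for chloride transport and GABA uptake or breakdown 2 were higher and 6 lower, with a median of -0.08, which was -0.033 without the HT male and -0.049 without the WT female, and 0 called. Slc12a5, the chloride extruder KCC2, also named for its role, was at -0.04 ± 0.10 (SE), and Slc12a2, the importer NKCC1, at -0.19 ± 0.10 (SE). Slc6a11, the GABA transporter GAT-3 of astrocytes, was at 0.58 ± 0.31 (SE), and at 0.19 without the WT female.

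The profiles of the 7 genes over the 4 libraries were compared by the root mean square distance of log2 levels centred per gene, as a description. Gabra6 and Gabrd lay 0.154 apart, and Gabrb1 and Gabrb2, the closest pair, 0.0392 apart. Gabra3 and Gabrd, the farthest pair, lay 0.734 apart. Among 10435 genes of at least 10 CPM on average, those nearest to Gabra6 were Rnpc3 (0.0105), Smg1 (0.0196) and Fbxl12 (0.0218). Those nearest to Gabrd were Prom1 (0.0222), Pxn (0.0295) and Col7a1 (0.0339), and those nearest to Gabra3 were Tmem179 (0.0219), Ncam2 (0.0308) and Creg2 (0.0341). For the other 4 genes the nearest were Slc7a1 for Gabra2, Dennd5b for Gabrb1, Edem3 for Gabrb2 and Piga for Gabrg1, at 0.00393 to 0.0155. With 4 libraries no test was made.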

How the data were processed

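Messenger RNA of mouse cerebellum in 4 libraries (2 HT, 2 WT) was analysed from a deposited table of raw counts of reads per gene symbol, 1 column per library. Per the submitters' processing notes, the tools were STAR, featureCounts, FastQC and edgeR and the build was mm9; no versions are given. Whether counting used strand is not stated there. Replicate numbers were given in accession order and pair nothing. Genes were kept with filterByExpr, leaving 15117 of 24015, scaled by TMM, and fitted with edgeR 4.0.16 (R 4.3.3; robust quasi-likelihood, sex and genotype as terms, 1 residual degree of freedom). Two-sided p-values got Benjamini-Hochberg adjustment across the tested genes. CPM used library totals. Ratios within a sex used a prior count of 2. Lengths came from GENCODE (GRCm38) and promoters from RefSeq. The genes described and all lists were chosen with earlier results of these data known. Some subunit genes are not reported here. Named were the 7 genes, Arid1b, the 9 other subunit genes listed, list members of smallest p, the sex-linked genes and the nearest profiles. Tph2, Hoxa5, Hoxb5, Slc6a3, Nfia, Nfib, Gphn and Slc12a5 were named outside that rule, after their values were seen. The scripts were tested on simulated data. Alternatives were DESeq2 1.42.0, limma-voom 3.58.1, edgeR's likelihood ratio test, other scalings, filters and thresholds, no sex term and each library left out. Limits at 3 counts cover counting error only.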

Additional observations from a re-analysis of the deposited data

How the results depend on the processing

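The direction of all 7 fold changes held under the 8 alternatives of test, scaling, filter and sex term that kept 4 libraries. The count of the 7 genes called was 0 in the fit reported, 2 with DESeq2 (Gabra6 at -0.52 and Gabrd at -0.56), and 3 with edgeR's likelihood ratio test and with no low-count filter (Gabra3 at 0.66, Gabra6 at -0.51 and Gabrd at -0.56 in each). With a library left out it ran from 0 to 3. Over all genes, 3 were called in the fit reported, 32 with DESeq2, 166 with the likelihood ratio test, 7 with DESeq2's size factors, 7 with library totals, 7 at an adjusted p of 0.1, 553 with no filter, 0 with at least 1 CPM in 2 libraries, 0 without the sex term and 0 to 2730 with a library left out (0 without the HT male, 3 without the HT female, 2730 without the WT male, 658 without the WT female). The cause of these shifts was not tested. With a library left out, the log2 fold changes ran from -0.038 to 0.11 for Gabra2, 0.33 to 1.00 for Gabra3, -0.61 to -0.43 for Gabra6, -0.25 to 0.063 for Gabrb1, -0.31 to -0.00341 for Gabrb2, -0.23 to 0.37 for Gabrg1 and -0.78 to -0.34 for Gabrd. Those fits have genotype as their only term and take the spread of the single remaining library from the rest. List medians that turned were those of the receptor partners (-0.027 to 0.19) and the microglia markers (-0.14 to 0.43). No paired analysis was possible because the replicate numbers come from accession order, beyond the sex term of the reported fit, which sets 1 HT library against 1 WT library within each sex. With 107 to 129 counts a library, the precision of Gabrb1 is limited by depth.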
